A study of Bos taurus and other sequences with 9 samples.

Results

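The effect of ultrafiltration on small non-coding RNA of fetal bovine serum (FBS) was described by comparing ultrafiltration-depleted FBS (UF-dFBS) with regular FBS within each of 2 sera. The members were 4 of the 9 sequenced samples: FBS-1 and UF-dFBS-1 from the serum of Sigma, and FBS-2 and UF-dFBS-2 from the serum of Gibco. In all 4 the serum was 10% of DMEM/F12 medium with antibiotics, and no cells had been in contact with the medium. For UF-dFBS, regular FBS was spun through a centrifugal filter with a molecular weight cutoff and the flow-through was kept. UC-dFBS-1 and UC-dFBS-2, prepared from the same sera by ultracentrifugation, and StemPRO, a serum-free medium sequenced in 1 sample, are given beside the results where they help to read a level, and 2 lots of the commercially depleted SBI-dFBS entered the test only. Extracellular vesicles and their RNA were collected from each medium with a membrane affinity kit, so that the values describe what the kit captured. Each serum was ultrafiltered and sequenced once, so a ratio within a serum has no replicate and the sera serve as 2 replicates of the comparison.

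Serum carries small RNAs inside extracellular vesicles, bound to proteins such as Argonaute, and on lipoproteins. MicroRNAs (miRNAs) are short regulators that guide Argonaute proteins to mRNAs, and those in blood come largely from liver, blood cells and the vessel wall. Transfer RNAs (tRNAs) deliver amino acids to the ribosome, and their fragments are among the most abundant small RNAs of serum. Small nuclear RNAs (snRNAs) form the core of the spliceosome, Y RNAs bind the Ro60 protein, and small nucleolar RNAs (snoRNAs) guide the chemical modification of other RNAs. An ultrafilter retains vesicles and large particles, while free RNA and small complexes can pass.

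Values are given for 425 miRNAs and for 1361 genomic loci of other classes: 163 snoRNA, 238 Y RNA, 419 snRNA, 530 tRNA and 11 piRNA loci. The Sigma pair had 4003607 counts before and 6867736 after ultrafiltration, and the Gibco pair had 603780 before and 82513 after. At these depths 1 spike-in normalized count stood for 55.2 counts in UF-dFBS-1 and 24.02 counts in UF-dFBS-2, against 4.84 in FBS-1 and 7.45 in FBS-2. The most that a count of 0 allows, 3 counts, was 0.0543 spike-in normalized counts in UF-dFBS-1 and 0.125 in UF-dFBS-2. Reads of bovine RNA were counted on human miRNAs and human loci, so a locus name gives the human RNA that a read matched. Intervals below are 95% exact binomial intervals that cover counting error only, and the error of the spike-in factors is not part of them. The paper regards spike-in scaling as likely less accurate for the other classes, whose RNAs were mostly longer than the miRNA-sized spike-ins.

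The classes differed widely in what remained after ultrafiltration. Total miRNA was 42063 spike-in normalized counts in FBS-1 and 76.1 in UF-dFBS-1, so 0.181% (0.175 to 0.187%) remained. In the Gibco serum it was 16687 before and 39.0 after, so 0.234% (0.219 to 0.249%) remained. In both sera miRNA was the class with the smallest remainder. Total tRNA was 782752 in FBS-1 and 123692 in UF-dFBS-1, a remainder of 15.8%, and 63322 in FBS-2 and 3346 in UF-dFBS-2, a remainder of 5.28% (5.24 to 5.32%). Y RNA had 532 before and 40.6 after in the Sigma serum (7.63%, 7.20 to 8.07%) and 522 before and 31.4 after in the Gibco serum (6.01%, 5.55 to 6.50%). For snoRNA, 7.04% (6.04 to 8.21%) remained in the Sigma serum and 2.59% (1.76 to 3.70%) in the Gibco serum. The snRNA total split the sera, with 48.9% (47.5 to 50.3%) remaining in the Sigma serum and 4.21% (3.79 to 4.67%) in the Gibco serum.

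**Figure D1:**
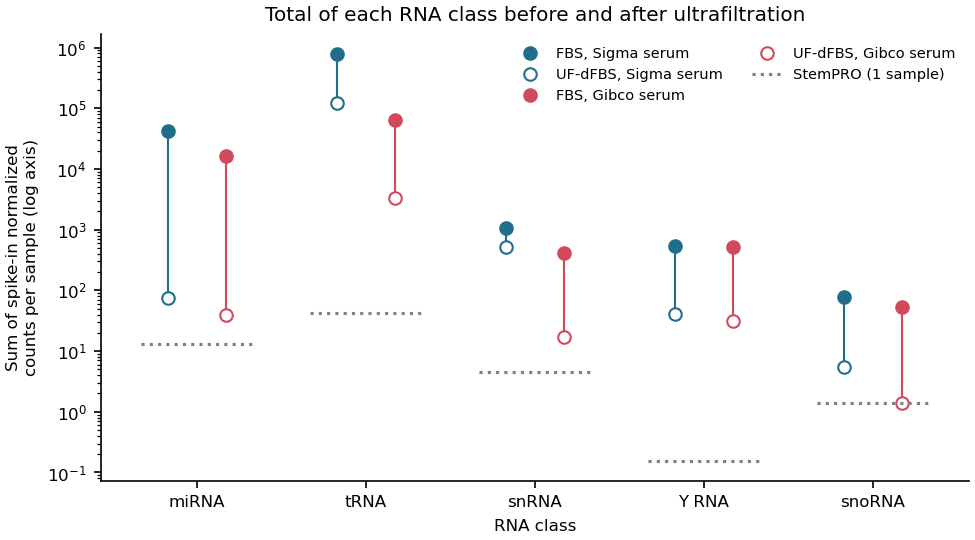
Sum of spike-in normalized counts per sample (log axis) for 5 RNA classes in FBS (filled) and UF-dFBS (open) of the Sigma and the Gibco serum, 1 sample per point, with StemPRO as a dotted line. The lines between filled and open points are longest for miRNA, of which 0.181% and 0.234% remained, and shortest for snRNA in the Sigma serum, of which 48.9% remained.

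Both UF-dFBS samples lay below both FBS samples for total miRNA, Y RNA and snoRNA, with p = 0.333 in a two-sided exact permutation test of log2 totals over the samples. This is the smallest p that 2 samples against 2 allow. For tRNA and snRNA the media overlapped, because UF-dFBS-1 (123692 tRNA and 528 snRNA) exceeded FBS-2 (63322 and 409), and the exact permutation p was 0.667 for each. As shares of all counts, miRNA went from 5.09% of FBS-1 to 0.0612% of UF-dFBS-1 and from 20.6% of FBS-2 to 1.14% of UF-dFBS-2, while tRNA went from 94.7% to 99.5% and from 78.2% to 97.4%. In UC-dFBS of the same sera 18.5% and 23.1% of the FBS miRNA was found. For tRNA the UC-dFBS value was 68.0% of FBS in the Sigma serum but 204% in the Gibco serum, so FBS-2 had less tRNA than UC-dFBS-2. Its part in the tRNA ratios of the Gibco serum was not tested.

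Single RNAs followed the classes. Log2 ratios of UF-dFBS to FBS were taken for the RNAs with at least 100 counts in the FBS sample of that serum, and a count of 0 in UF-dFBS was set to 3 counts, which gives an upper bound. Among 75 miRNAs of the Sigma serum the median log2 ratio was -9.67, from -13.22 to -4.35, with 7 miRNAs at their bound. Among 73 miRNAs of the Gibco serum it was -8.52, from -13.34 to -6.44, with 14 at their bound. All of these miRNAs had an interval below the FBS level, and 72 of 75 and 71 of 73 had less than 1% left. The 149 tRNA loci of the Sigma serum were spread widely around a median of -3.04, from -8.45 to 0.82, whereas the 91 tRNA loci of the Gibco serum lay between -8.09 and -3.25 around -4.94. In the Sigma serum 40 tRNA loci kept at least 50% of their FBS level, 37 kept 10 to 50%, 67 kept 1 to 10% and 5 kept less than 1%. In the Gibco serum no tRNA locus kept 50%, 4 kept 10 to 50%, 79 kept 1 to 10% and 8 kept less than 1%.

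**Figure D2:**
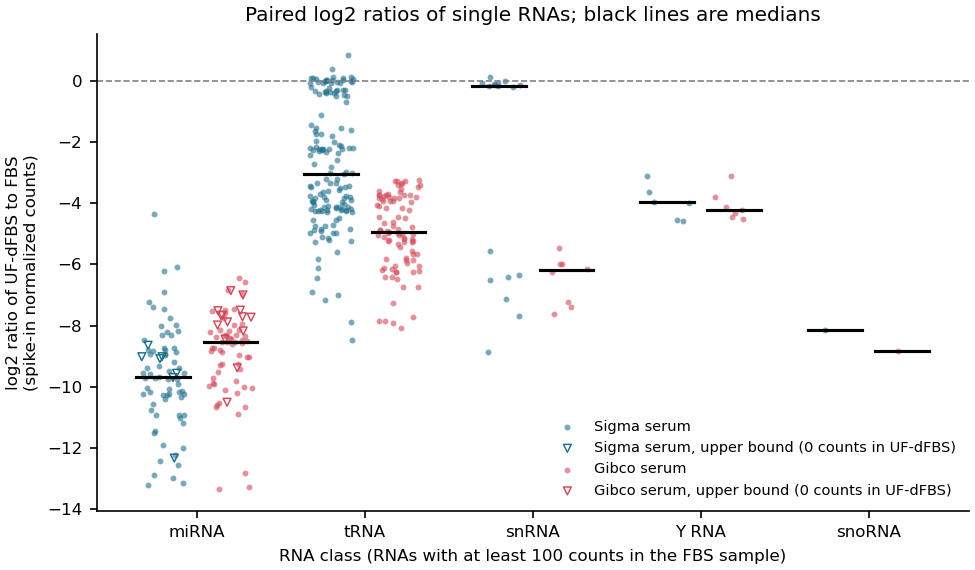
Log2 ratio of UF-dFBS to FBS of the same serum for each RNA with at least 100 counts in FBS, by class, with the Sigma serum on the left and the Gibco serum on the right of each pair, black lines at the medians and open triangles for upper bounds. miRNAs lie around -9.67 and -8.52, and a group of tRNA and snRNA loci of the Sigma serum lies at the dashed line of no difference.

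Of the 163 miRNAs that could be tested, 160 (98.2%) were lower in UF-dFBS than in FBS and 0 (0%) were higher (edgeR quasi-likelihood test on counts scaled by the spike-in factors, Benjamini-Hochberg adjusted p threshold 0.05, 8 FBS-based samples). None was higher at an unadjusted p under 0.05 or by DESeq2 with the same scaling (0 and 0). The median change was -8.67 on the log2 scale. With the serum as a block in the 6 samples of both sera, 155 of 158 (98.1%) were lower and 0 (0%) were higher. A miRNA had to have at least 10 counts in at least 2 samples to be tested, which FBS reached far more often than UF-dFBS. In UF-dFBS-1 only 38 of 425 miRNAs had at least 10 counts, against 171 in FBS-1, and in UF-dFBS-2 only 14 had, against 161 in FBS-2. When samples were scaled to each other by TMM instead, the median change was -0.59, 10 miRNAs were lower and 12 higher, so these calls rest on the spike-in scale. The ratios of single miRNAs below are therefore to be read against the medians of all miRNAs, -9.67 and -8.52.

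The liver miRNA hsa-miR-122-5p, the main miRNA of hepatocytes, was the most abundant miRNA in both UF-dFBS samples. It had 93988 and 35907 counts in FBS of the Sigma and the Gibco serum and 2541 and 389 in UF-dFBS, which is 19403, 4817, 46.0 and 16.2 spike-in normalized counts. Both UF-dFBS samples thus lay far below both FBS samples, and the miRNA fell by 8.60 on the log2 scale (SE 1.99, adjusted p = 1.86e-05). It retained 0.237% (0.228 to 0.247%) and 0.336% (0.303 to 0.372%) of its FBS level, slightly more than the miRNA total in each serum. Its share of all miRNA counts accordingly went from 46.1% to 60.4% in the Sigma serum and from 28.9% to 41.5% in the Gibco serum. hsa-miR-148a-3p, also rich in liver, had 1952 and 994 counts in FBS and 38 and 7 in UF-dFBS, ratios of -9.19 and -8.84. All 4 tested members of a liver list of 9 miRNAs were lower, against 98.2% of all miRNAs, and the 3 with at least 100 counts in FBS had median ratios of -8.72 and -8.55.

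Among the largest reductions were those of miRNAs of white blood cells and vessels, though not of all of them. hsa-miR-223-3p of the white cell and platelet list had ratios of -9.30 and -8.33, above the medians of all miRNAs. hsa-miR-142-3p, which is specific to blood cells, had 13363 and 6117 counts in FBS of the Sigma and the Gibco serum but 16 and 2 in UF-dFBS. It was left at 0.0105% (0.00600 to 0.0171%) and 0.0101% (0.00123 to 0.0367%) of FBS, and fell by 13.05 on the log2 scale (SE 1.43, adjusted p = 3.12e-18). hsa-miR-126-3p, the miRNA of endothelial cells, had 10250 and 8917 counts in FBS and 13 and 4 in UF-dFBS, ratios of -13.13 and -12.81. Its other arm, hsa-miR-126-5p, had 1348 and 1349 counts in FBS and 0 in both UF-dFBS samples, so that it was at least 5123-fold lower in the Sigma serum and at least 1449-fold lower in the Gibco serum against a floor of 3 counts per sample. hsa-miR-143-3p, abundant in smooth muscle, had 6360 and 3211 counts in FBS and 12 and 1 in UF-dFBS, ratios of -12.56 and -13.34. hsa-miR-142-3p thus went from 6.56% to 0.381% of the miRNA counts of the Sigma serum and from 4.92% to 0.213% of those of the Gibco serum.

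hsa-miR-145-5p, which is transcribed together with hsa-miR-143-3p, did not share that reduction in the Sigma serum. It had 122 and 68 counts in FBS and 68 and 1 in UF-dFBS, so that 4.89% (3.58 to 6.63%) remained in the Sigma serum and 0.456% (0.0114 to 2.63%) in the Gibco serum. Its ratio of -4.35 was the highest of the 75 miRNAs of the Sigma serum. The difference between the sera did not pass the test (edgeR adjusted p = 0.106).

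The let-7 family, regulators of developmental timing and differentiation, was reduced more than the median miRNA in the Sigma serum. All 9 members had at least 100 counts in both FBS samples and all 9 were lower, against 98.2% of all miRNAs, with a median ratio of -11.45 in the Sigma serum and -9.02 in the Gibco serum. hsa-let-7a-5p had 13343 and 12442 counts in FBS and 37 and 21 in UF-dFBS, ratios of -12.01 and -10.90, and fell by 11.48 on the log2 scale (SE 1.40, adjusted p = 3.36e-15). hsa-let-7f-5p had 9166 and 9127 counts in FBS and 19 and 25 in UF-dFBS. hsa-let-7b-5p kept more than these, with 8430 and 7097 counts before and 115 and 63 after, ratios of -9.71 and -8.50, and was among the 5 most abundant miRNAs of both UF-dFBS samples.

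The counts of the other lists are to be read against the 98.2% of all tested miRNAs that were lower. Of 18 tested miRNAs that are often found in extracellular vesicles of cultured cells, 18 were lower, with median ratios of -9.71 and -8.50. Of the tested members, 6 of 6 were lower for white cells and platelets, 4 of 4 for red cells, 4 of 4 for vessels, 20 of 20 for the imprinted DLK1-DIO3 cluster and 10 of 10 for the growth-related miR-17-92 clusters. The same was found for 7 of 7 miRNAs of the miR-15/16 group, 5 of 5 of the miR-30 family, 5 of 5 of miR-23/24/27, 7 of 7 of the miR-10, miR-99 and miR-125 families and 2 of 2 muscle miRNAs. The list medians of the paired ratios were -10.73 and -9.97 for white cells and platelets, -12.44 and -12.81 for vessels, -9.37 and -8.38 for red cells, -8.97 and -8.38 for DLK1-DIO3, and -10.60 and -10.01 for miR-30. The erythroid hsa-miR-486-5p had 612 and 1766 counts in FBS and 27 and 20 in UF-dFBS, ratios of -8.01 and -8.15, while hsa-miR-451a, which red cells make without Dicer, had ratios of -9.37 and -8.61. In the imprinted cluster, hsa-miR-432-5p had ratios of -8.93 and -9.96 and hsa-miR-379-5p of -10.23 and -9.91. hsa-miR-93-5p of a miR-17-92 paralog had ratios of -11.91 and -9.82, and hsa-miR-25-3p of the same cluster had -8.84 and -9.27. hsa-miR-30a-5p had 417 and 325 counts in FBS and 1 in each UF-dFBS sample.

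Among miRNAs with at least 100 counts in both FBS samples, those with the highest mean ratios were hsa-miR-23b-3p, hsa-miR-23a-3p, hsa-miR-92a-3p, hsa-miR-320a and hsa-miR-423-3p. hsa-miR-23b-3p had 112 and 246 counts in FBS and 19 and 7 in UF-dFBS, so that 1.49% (0.864 to 2.43%) and 0.883% (0.351 to 1.85%) remained. hsa-miR-23a-3p, encoded in a cluster with miR-24 and miR-27, retained 1.35% and 0.462%, and hsa-miR-92a-3p, the most abundant product of the miR-17-92 cluster in many cells, retained 0.575% and 1.05%. hsa-miR-320a, whose precursor is made without Drosha, retained 0.832% and 0.568%. hsa-miR-423-3p retained 0.317% and 0.808%, and its other arm hsa-miR-423-5p, with 665 and 1792 counts in FBS and 30 in each UF-dFBS sample, retained 0.396% and 0.520%. Each of these was nevertheless lower in UF-dFBS, and hsa-miR-23b-3p fell by 6.41 on the log2 scale (SE 0.81, adjusted p = 1.78e-14). The list of miR-23/24/27 had the highest medians of any list with 100 counts in FBS, -7.51 and -7.71.

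Of the tested miRNAs, 3 of 163 were not lower, and they are named after their values were seen. hsa-miR-203a, a miRNA of the epidermis, had 34 and 40 counts in FBS and 282 and 75 in UF-dFBS, which is 7.02, 5.37, 5.11 and 3.12 spike-in normalized counts. It kept 72.7% (50.9 to 107%) in the Sigma serum and 58.2% (39.1 to 87.7%) in the Gibco serum, where the interval lay below the FBS level. The change was -0.58 on the log2 scale (SE 0.76, adjusted p = 0.453 by edgeR). The paper reports mostly short inserts for hsa-miR-203a and says that it may be an experimental artifact. The same miRNA made up 24.2% of the miRNA counts of StemPRO, at 3.22 spike-in normalized counts, and its share of miRNA counts went from 0.0167% of FBS-1 to 6.71% of UF-dFBS-1. hsa-miR-205-5p, another epithelial miRNA, had 1 and 9 counts in FBS and 62 and 18 in UF-dFBS, and its level of 1.12 and 0.749 in UF-dFBS stood beside 0.555 in StemPRO (adjusted p = 0.756). hsa-miR-4532 had 11 and 0 counts in FBS, 61 and 4 in UF-dFBS and 0 in StemPRO (adjusted p = 0.506). Of the epithelial list 3 of 5 tested miRNAs were lower, and hsa-miR-200a-3p, a repressor of epithelial to mesenchymal transition, had 14 and 21 counts in FBS and 1 in each UF-dFBS sample. Of 7 miRNAs outside the classical families, 2 were tested and 1, hsa-miR-1246, was lower. The muscle miRNA hsa-miR-1 kept 7.40% (4.27 to 12.7%) and 25.4% (12.8 to 49.6%) on 27 and 18 counts in UF-dFBS, while hsa-miR-133a-3p had 4 and 10 counts in FBS and 1 and 3 in UF-dFBS.

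Serum-free medium gives a background for these remainders. The miRNA total of UF-dFBS was 5.72 times that of StemPRO in the Sigma serum and 2.93 times in the Gibco serum. Of the 75 miRNAs with at least 100 counts in FBS-1, 18 were at or below their StemPRO level in UF-dFBS-1, and of the 73 in FBS-2, 22 were so in UF-dFBS-2. hsa-miR-126-3p was at 0.235 and 0.167 in UF-dFBS and 0.629 in StemPRO, hsa-miR-142-3p at 0.290 and 0.0833 against 0.305, and hsa-miR-16-5p, found in nearly all cells, at 1.07 and 1.21 against 2.02. hsa-let-7a-5p, with 0.670 and 0.874 against 0.611, lay close to it. hsa-miR-122-5p stood far above it, at 46.0 and 16.2 against 0.0648, as did hsa-miR-148a-3p, at 0.688 and 0.291 against 0.00926. StemPRO had 6679 counts in all, so that these background levels are themselves based on few counts, and the source of the remaining miRNA was not tested.

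**Figure D3:**
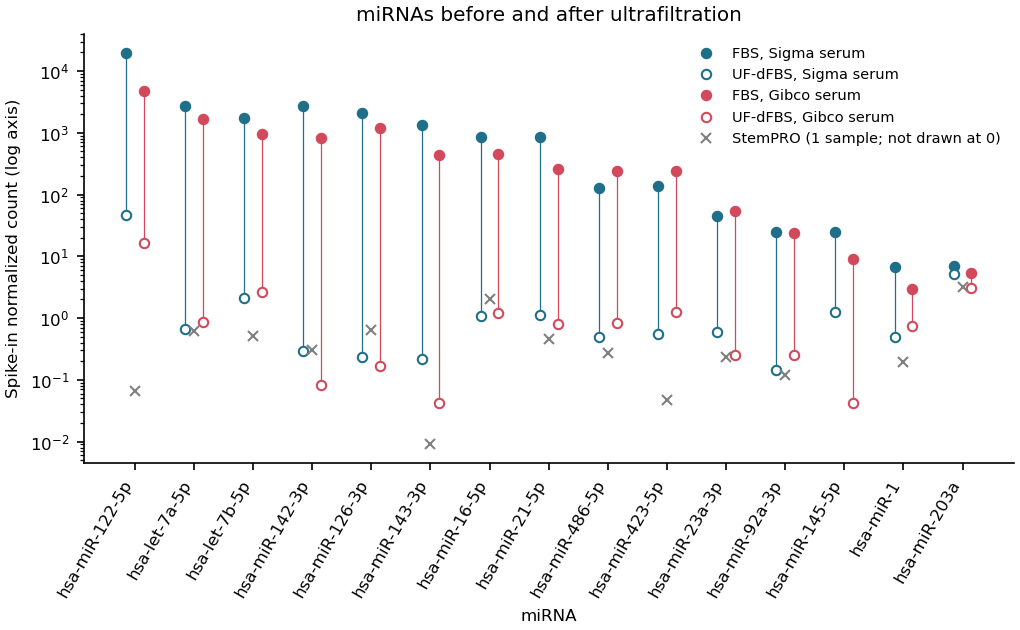
Spike-in normalized counts (log axis) of 15 miRNAs in FBS (filled) and UF-dFBS (open) of both sera, 1 sample per point, with StemPRO as crosses where above 0. The drop from filled to open points is smallest for hsa-miR-203a (7.02 and 5.37 to 5.11 and 3.12), and hsa-miR-122-5p at 46.0 and 16.2 remains the highest in UF-dFBS.

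How abundant a miRNA was in FBS only partly set its order in UF-dFBS. Across miRNAs with at least 100 counts in FBS, Spearman's rho between FBS and UF-dFBS levels was 0.58 in the Sigma serum (75 miRNAs) and 0.61 in the Gibco serum (73 miRNAs). Across tRNA loci it was 0.89 (149 loci) and 0.81 (91 loci). These are descriptions across RNAs of the same samples, which are not independent replicates. In the Sigma serum the median ratio was -9.37 for the 39 miRNAs with 100 to 300 counts in FBS-1, -9.56 for 14 with up to 1000, -10.04 for 15 with up to 5000 and -12.43 for the 7 above. In the Gibco serum it was -7.97 for 34, -9.26 for 21, -9.07 for 12 and -10.55 for 6 miRNAs, so that the middle ranges did not follow this order. In the low range, 6 and 11 miRNAs were at their bound, so that their true ratios can be lower.

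In published annotations that place miRNAs inside or outside vesicles, 132 of the 425 miRNAs are listed as non-vesicular only and 55 as vesicular or found in both fractions. Non-vesicular miRNAs had median ratios of -9.49 (45 miRNAs) and -8.42 (42), and miRNAs with a vesicular entry had -10.72 (16) and -9.20 (16), beside -9.67 and -8.52 for all. Summed over their members, 0.209% and 0.290% of the non-vesicular miRNAs and 0.0422% and 0.0758% of those with a vesicular entry remained. The miRNAs with a vesicular entry summed to 5.03 and 4.75 spike-in normalized counts in UF-dFBS, close to the 4.55 of StemPRO. The non-vesicular sums were 60.7 and 28.2, beside 4.66 in StemPRO. hsa-miR-122-5p is in the non-vesicular group and sets most of its sum. Of the tested members 81 of 82 non-vesicular and 34 of 34 vesicular miRNAs were lower, against 98.2% of all miRNAs.

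Among other small ncRNAs the answer of the test depended on whether the serum was taken into account. Without it, 0 of 363 loci (0%) were lower and 0 (0%) higher in UF-dFBS by edgeR, although 108 were lower at an unadjusted p under 0.05 and DESeq2 with the same scaling called 135 lower and 0 higher. With the serum as a block, which compares each UF-dFBS sample with the FBS of its own serum, 213 of 322 loci (66.1%) were lower and 0 (0%) higher, with a median change of -3.66. With the 4 samples of FBS and UF-dFBS alone it was 175 of 309. The blocked values are used below, since FBS-1 and FBS-2 differed in tRNA, with totals of 782752 and 63322. The blocked fit takes the same change for both sera, so a locus that it did not call is not shown to be unchanged. By class, 18 of 18 Y RNA, 31 of 41 snRNA, 162 of 259 tRNA and 2 of 4 snoRNA loci were lower. Under TMM the blocked fit called 19 lower and 21 higher around a median of -0.38, so here too the direction rests on the spike-in scale. How reads that matched several loci were placed is not given in the sources used here. Loci of the same tRNA family, snRNA type or Y RNA therefore cannot be taken as independent, and families are also given as sums.

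Of the valine tRNAs, tRNA-ValCAC and tRNA-ValAAC were close to their FBS level in UF-dFBS of the Sigma serum, while tRNA-ValTAC kept 16.2%. tRNA-ValCAC, summed over 15 loci, was 18629 spike-in normalized counts in FBS-1 and 17541 in UF-dFBS-1, or 94.2% (93.5 to 94.8%), and tRNA-ValAAC, over 11 loci, kept 92.1% (91.4 to 92.7%). In the Gibco serum tRNA-ValCAC was 282 in FBS-2 and 19.9 in UF-dFBS-2, or 7.08% (6.40 to 7.82%), and tRNA-ValAAC kept 7.02% (6.30 to 7.80%). The locus tRNA5-ValAAC (chromosome 5, 180596610 to 180596682, GRCh37) had 10904 counts before and 124790 after in the Sigma serum, levels of 2251 and 2259, but 259 before and 75 after in the Gibco serum, levels of 34.7 and 3.12. Within tRNA-ValCAC and tRNA-ValAAC, 1 of 13 and 3 of 10 tested loci were lower in the blocked test, against 162 of 259 tRNA loci and 66.1% of all other loci. In UC-dFBS these families were at 67.5% and 66.4% of FBS in the Sigma serum and at 557% and 550% in the Gibco serum, so FBS-2 was the lowest of the regular and ultracentrifuged samples for these tRNAs.

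tRNA-GlyGCC and tRNA-GluCTC also kept most of their FBS level in the Sigma serum only. In UC-dFBS they differed from the valine families, with tRNA-GlyGCC at 27.02% and 14.5% of FBS and tRNA-GluCTC at 50.1% and 93.6%. tRNA-GlyGCC kept 84.6% (83.4 to 85.9%) in the Sigma serum, and its 13 loci with at least 100 counts kept between 75.7% and 109%. In the Gibco serum it kept 2.78% (2.46 to 3.14%). The locus tRNA35-GlyGCC (chromosome 1, 161413094 to 161413164) had 774 counts in FBS-1 and 9619 in UF-dFBS-1, so that 109% (101 to 117%) was found, but 138 in FBS-2 and 11 in UF-dFBS-2, so that 2.47% (1.21 to 4.57%) was found. None of the 13 tested tRNA-GlyGCC loci was lower in the blocked test, which takes the same change for both sera. tRNA-GluCTC kept 66.1% (64.8 to 67.4%) and 6.73% (6.22 to 7.27%). The other loci that kept at least 50% in the Sigma serum were 2 of tRNA-GlyCCC, tRNA40-ValTAC with 129% (116 to 144%) and tRNA9-ArgTCT with 176% (147 to 214%). In the Sigma serum 6 of 149 tRNA loci had an interval above the FBS level, and 0 of 91 had in the Gibco serum. Those named here were picked after their values were seen. The intervals leave out the error of the spike-in scale, so a level slightly above FBS does not show a rise. No RNA of any class was above its FBS level by its interval in both sera.

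The most abundant tRNAs of FBS were reduced to differing degrees. tRNA-GlyCCC, the leading family of UF-dFBS, was 158831 in FBS-1 and 46792 in UF-dFBS-1, or 29.5% (29.4 to 29.5%), and 35331 in FBS-2 and 2669 in UF-dFBS-2, or 7.55% (7.49 to 7.62%). It made up 37.8% of the tRNA counts of UF-dFBS-1 and 79.8% of those of UF-dFBS-2, against 20.3% and 55.8% of FBS. Nearly all of it came from tRNA34-GlyCCC (chromosome 16, 686736 to 686806) and tRNA27-GlyCCC (chromosome 2, 70476123 to 70476193), with 400754 and 365125 counts in FBS-1 and 1295688 and 1254555 in UF-dFBS-1. tRNA-HisGTG held 63.7% of the tRNA counts of FBS-1 but 6.61% of FBS-2. Of the 21 families with at least 100 counts in both FBS samples, it was 1 of 3 that kept more in the Gibco serum. It kept 9.01% (8.80 to 9.23%) there against 5.24% (5.23 to 5.25%) in the Sigma serum. In UC-dFBS it was at 64.2% of FBS in the Sigma serum and 786% in the Gibco serum, so FBS-2 was below UC-dFBS-2. The part of this low FBS-2 level in the order of tRNA-HisGTG was not tested. Its locus tRNA7-HisGTG (chromosome 9, 14433938 to 14434009) had 325000 and 4509 counts in FBS and 188768 and 1060 in UF-dFBS. None of these 3 loci passed the blocked test, with an adjusted p of 0.377 for tRNA27-GlyCCC and 0.16 for tRNA7-HisGTG by edgeR.

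tRNA-GluTTC showed a wide gap between the sera. It kept 12.4% (12.3 to 12.5%) in the Sigma serum and 0.448% (0.428 to 0.469%) in the Gibco serum, and its share of the tRNA counts of the Gibco serum went from 28.7% to 2.44%. tRNA11-GluTTC (chromosome 15, 26327381 to 26327452) had 64527 and 47445 counts in FBS and 79245 and 664 in UF-dFBS, ratios of -3.21 and -7.85. Its level differed less between the FBS samples, at 13321 and 6364 spike-in normalized counts, than between the UF-dFBS samples, at 1435 and 27.6. The blocked change was -4.70 (SE 2.71, adjusted p = 0.118). The loci tRNA84-GluTTC and tRNA134-GluTTC were unlike the rest of the family, with 3.78% and 4.26% left in the Sigma serum and 4.51% and 3.05% in the Gibco serum.

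**Figure D4:**
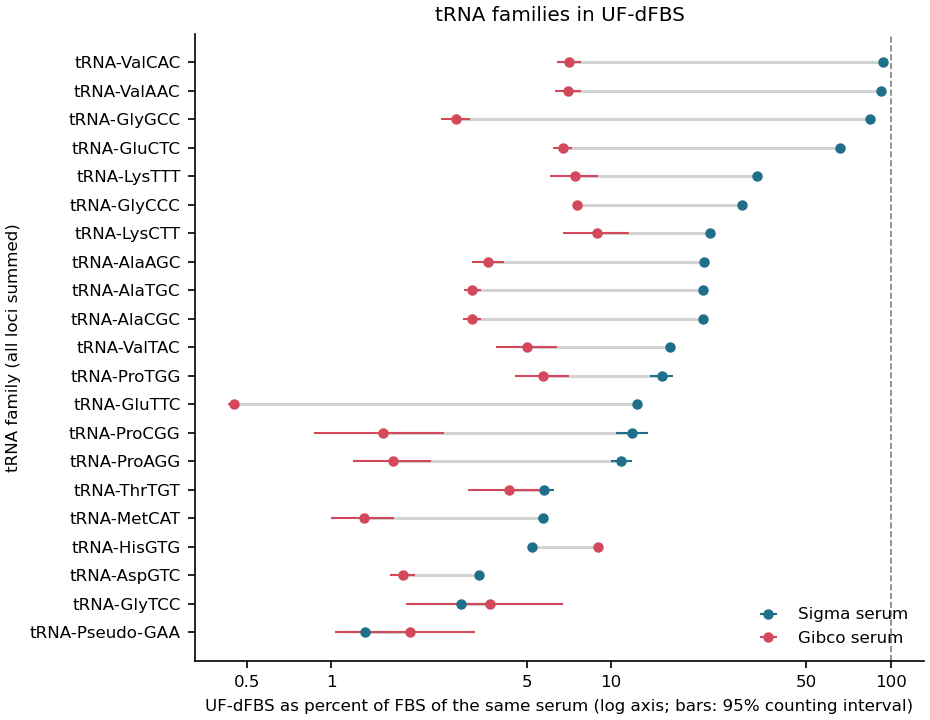
UF-dFBS as percent of FBS of the same serum (log axis) for the 21 tRNA families with at least 100 counts in both FBS samples, all loci summed, with bars for the 95% counting interval. In 18 of the 21 families the Sigma serum (blue) lies to the right of the Gibco serum (red), with medians of 16.2% and 3.69%.

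The 21 tRNA families with at least 100 counts in both FBS samples were all below their FBS level in both sera. Among them 1.32 to 94.2% remained in the Sigma serum and 0.448 to 9.01% in the Gibco serum. tRNA-AspGTC kept 3.36% and 1.80% and was lower at 14 of 14 tested loci, against 162 of 259 of all tRNA loci, tRNA-MetCAT kept 5.71% and 1.31% and was lower at 10 of 10, and tRNA-ProAGG kept 10.9% and 1.67% and was lower at 10 of 10. The alanine families tRNA-AlaAGC, tRNA-AlaTGC and tRNA-AlaCGC were close to each other, at 21.5%, 21.4% and 21.3% in the Sigma serum and 3.64%, 3.20% and 3.19% in the Gibco serum. In UC-dFBS they were at 80.8%, 81.2% and 81.3% of FBS in the Sigma serum and 397%, 402% and 405% in the Gibco serum. FBS-2 was thus below UC-dFBS-2 for the alanine families. tRNA-LysTTT kept 33.2% and 7.41%, and tRNA-LysCTT 22.6% and 8.90%. The pseudogene locus tRNA92-PseudoGAA had the lowest mean ratio of the tRNA loci with at least 100 counts in both FBS samples, -6.46 and -6.25, with 331 and 118 counts in FBS and 43 and 5 in UF-dFBS, and fell by 6.32 on the log2 scale in the blocked test (SE 1.29, adjusted p = 1.9e-05). The leucine and glutamine families had fewer than 100 counts in FBS-2 and were not among the 21.

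Among snRNAs, U4 stood apart from U1, U2, U11 and U12. U6 and U5 lay between them on few counts. U6 had 44 and 35 counts in FBS of the Sigma and the Gibco serum and kept 26.1% and 27.5%. U5 had 13 and 5 and kept 21.6% and 18.6%. U4 pairs with U6 before the spliceosome is activated. Its 10 loci with at least 100 counts in FBS-1 had 229 to 290 counts there and 2622 to 2966 in UF-dFBS-1, levels of 47.3 to 59.9 and 47.5 to 53.7. Summed over all 50 loci, U4 kept 92.9% (89.3 to 96.7%) in the Sigma serum. In the Gibco serum it was rare, with 50 counts in FBS-2 and 179 in UF-dFBS-2, and 111% (80.8 to 155%) was found, so that no reduction was detectable at this depth. In UC-dFBS, U4 was at 59.2% of FBS in the Sigma serum and 455% in the Gibco serum, so FBS-2 was below UC-dFBS-2. The part of this low FBS-2 level in the U4 ratio of the Gibco serum was not tested. RNU4-1 (chromosome 12, 120730900 to 120731040) had 284 and 3 counts in FBS and 2935 and 17 in UF-dFBS. None of the 10 tested U4 loci was lower in the blocked test, where RNU4-1 had a change of 0.08 (SE 1.04, adjusted p = 0.957). U4 made up 51.5% of the snRNA counts of FBS-1 and 98.0% of those of UF-dFBS-1, and 1.64% and 43.3% in the Gibco serum. In StemPRO U4 had 4 counts.

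Without U4, the snRNA total of the sera was alike, with 1.99% (1.82 to 2.18%) left in the Sigma serum and 2.42% (2.11 to 2.77%) in the Gibco serum. U1, which recognises the start of an intron, kept 1.14% (0.829 to 1.53%) in the Sigma and 4.60% (3.60 to 5.82%) in the Gibco serum. U2, which binds the branch point, kept 2.56% (2.21 to 2.96%) and 1.94% (1.48 to 2.50%). All 19 tested U1 and all 10 tested U2 loci were lower in the blocked test, against 66.1% of all tested loci. In UF-dFBS, U1 was at 0.905 and 3.37 and U2 at 4.45 and 2.62 spike-in normalized counts, beside 1.16 and 1.66 in StemPRO, so that U1 of UF-dFBS-1 was below the serum-free medium. U11 and U12 belong to the minor spliceosome. RNU11 (chromosome 1, 28975112 to 28975245) had 859 and 852 counts in FBS and 21 and 14 in UF-dFBS, and kept 0.214% (0.132 to 0.3299%) and 0.510% (0.278 to 0.860%), which made it the most reduced snRNA. RNU12 (chromosome 22, 43011250 to 43011399) kept more, 2.11% (1.66 to 2.66%) and 2.26% (1.58 to 3.15%). Both were lower in the blocked test, by 8.21 (SE 1.81, adjusted p = 6.73e-05) and 5.51 (SE 1.40, adjusted p = 0.000427) on the log2 scale.

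Y RNA was the class whose ratios varied least among loci, with an SD of 0.56 in the Sigma and 0.48 in the Gibco serum. The tRNA and snRNA classes mix several families, and single families could vary less than Y RNA. The loci of tRNA-AlaTGC, for example, kept 21.0 to 21.8% in the Sigma serum. The 6 loci with at least 100 counts in FBS-1 had ratios from -4.59 to -3.10 and the 7 in FBS-2 from -4.51 to -3.11. The leading locus Y_RNA.384 (chromosome 7, 6252269 to 6252371) had 716 and 1181 counts in FBS and 952 and 272 in UF-dFBS, levels of 148, 158, 17.2 and 11.3. Both UF-dFBS samples were close to each other and far below both FBS samples, with 11.7% (10.6 to 12.9%) and 7.15% (6.24 to 8.16%) remaining. Y_RNA.493 kept 8.04% and 5.31%, and Y_RNA.696 kept 6.46% and 4.61%. All 18 tested loci were lower in the blocked test, against 66.1% of all other small ncRNA loci, with adjusted p = 0.0313 for Y_RNA.384 by edgeR. These loci cannot be taken as independent. StemPRO held 17 Y RNA counts in all, and the Y RNA level of UF-dFBS was 258 and 199.5 times that of StemPRO.

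snoRNAs were rare, and SNORD94 was the only one with 100 counts in FBS. SNORD94 (chromosome 2, 86362993 to 86363129), a box C/D snoRNA, had 174 and 281 counts in FBS and 7 and 2 in UF-dFBS, so that 0.353% (0.140 to 0.743%) and 0.221% (0.0266 to 0.805%) remained. It fell by 8.35 on the log2 scale in the blocked test (SE 1.33, adjusted p = 1.92e-07), and SCARNA15, with 41 and 49 counts in FBS and 0 in UF-dFBS, was lower too. Other snoRNAs were not reduced to this extent. SCARNA17 had 3 and 2 counts in FBS, 42 and 11 in UF-dFBS and 101 in StemPRO, and at levels of 0.760 and 0.458 in UF-dFBS it stayed below the 0.935 of StemPRO. The snoRNA total of UF-dFBS-2 was 0.996 times that of StemPRO, and that of UF-dFBS-1 was 4.02 times.

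Between the sera, the order of removal was shared across classes more than within tRNA. Across 170 RNAs with at least 100 counts in both FBS samples, Pearson's r between the log2 ratios of the sera was 0.86, within the 66 miRNAs it was 0.66, and within the 90 tRNA loci 0.42. Of these, 63 of 66 miRNAs had less than 1% left in both sera and 83 of 90 tRNA loci had at least 1% in both. The ratio was higher in the Sigma serum for 77 of 90 tRNA loci, by a median of 2.99 on the log2 scale, and for 18 of 66 miRNAs, with a median difference of -0.88. Of the 66 miRNAs, 14 were at a bound in at least 1 serum, and the floor was higher in UF-dFBS-2 (0.125) than in UF-dFBS-1 (0.0543). The median miRNA difference of Gibco minus Sigma in the edgeR interaction fit was 0.45, but 0.06 with at least 100 counts, both on the spike-in scale. With TMM it was -0.33, but TMM brings the typical RNA near no change, so this value cannot decide the direction. The direction thus rests on the spike-in scale.

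**Figure D5:**
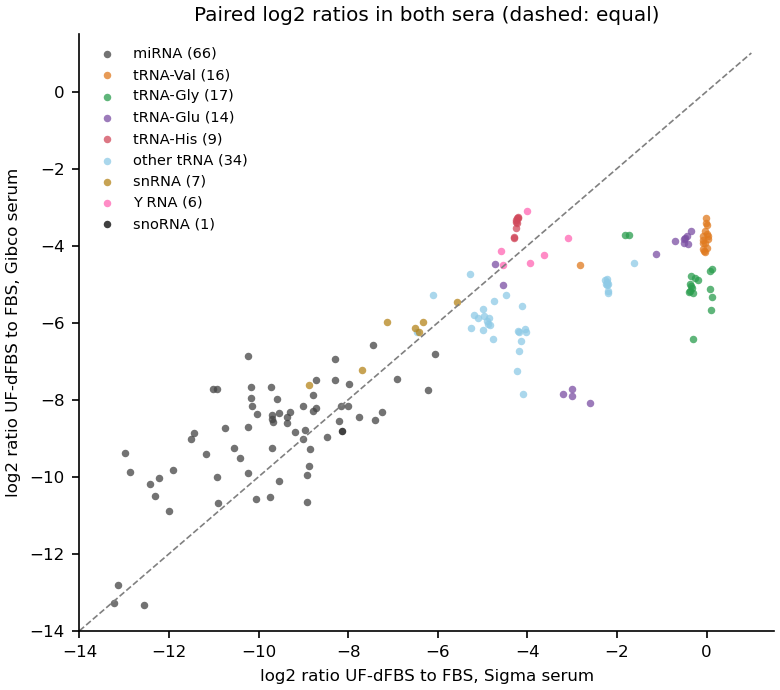
Log2 ratio of UF-dFBS to FBS in the Gibco serum against that in the Sigma serum for 170 RNAs with at least 100 counts in both FBS samples, coloured by class and tRNA family. miRNAs lie at the lower left, with only 18 of 66 below the dashed line of equal ratios. Of the 90 tRNA loci 77 lie below it, with a group of tRNA-Val and tRNA-Gly loci near 0 in the Sigma serum.

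The difference between the sera was tested as an interaction in the 6 samples, where 1 residual degree of freedom per RNA comes from UC-dFBS. The sera are taken to differ alike in FBS and UC-dFBS. For total tRNA they did not, since UC-dFBS was at 68.0% of FBS in the Sigma serum and 204% in the Gibco serum. The calls of tRNA loci are to be read with this limit. Among 158 miRNAs, 2 (1.27%) were reduced less in the Gibco serum, hsa-let-7c-5p (ratios of -11.45 and -8.86) and hsa-let-7f-5p (-12.43 and -10.20), and 1 (0.633%) was reduced more, hsa-miR-100-5p. hsa-miR-100-5p had 43 and 60 counts in FBS and 46 and 0 in UF-dFBS. The adjusted p was 0.0437 for each of the 3 by edgeR. In UF-dFBS-1 both let-7 miRNAs were below StemPRO, at 0.163 against 0.176 (hsa-let-7c-5p) and 0.344 against 0.426 (hsa-let-7f-5p) spike-in normalized counts. In UF-dFBS-2 they were above it, at 0.416 and 1.04. Among 322 other loci, 13 (4.04%) were reduced more in the Gibco serum and 0 (0%) less. Named after their values were seen, these were 6 loci of tRNA-GlyGCC, 4 of tRNA-Pro, and tRNA13-ValCAC, tRNA54-LysTTT and tRNA9-ArgTCT, with tRNA41-GlyGCC at ratios of 0.10 and -5.68 (adjusted p = 0.0206) and tRNA22-ProAGG at -2.51 and -6.75 (adjusted p = 0.0228). tRNA5-ValAAC, with ratios of 0.01 and -3.48, did not pass this test (adjusted p = 0.236), nor did tRNA11-GluTTC (adjusted p = 0.505).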

How the data were processed

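Small RNA was sequenced from 9 media, of which FBS and UF-dFBS of both sera were compared here. The authors collapsed reads by unique molecular identifier, trimmed them with cutadapt 1.11, and mapped them with Bowtie2 2.2.2 to miRBase and then to GRCh37. The deposited tables hold raw counts and spike-in normalized counts, the latter a signal that the authors made by scaling counts with a zero-intercept regression on added spike-in RNAs of miRNA size. For each sample 1 factor related both tables, and it was used as library size. The fit's own error was not used here.

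Counts were tested with edgeR 4.0.16 (R 4.3.3; quasi-likelihood, at least 10 counts in at least 2 samples, Benjamini-Hochberg adjusted p threshold 0.05) over the 8 FBS-based samples, with the serum as block in the 6 samples of both sera as an alternative. The test was checked on simulated data, where without the block it missed most simulated decreases of other small ncRNAs, so that a count of 0 there does not show an absence of change. With the block it found 42 of the 66 tested loci that had a simulated log2 decrease of 3, so it missed decreases too. Pairing came from the shared serum: the difference between sample 1 and sample 2 in FBS correlated with that in UF-dFBS at 0.196 over 163 miRNAs and 0.665 over 363 other loci. Total counts of the compared samples ranged from 82513 to 6867736, and paired ratios needed 100 counts in FBS. Nothing in the sources used here says that the samples of a medium came from separate preparations of 1 serum, so p-values measure the spread between the sera and media only. Each SE given is the size of the fitted log2 change divided by the square root of its F statistic. Alternatives were TMM, DESeq2 1.42.0, other filters, shares of counts and leaving out each sample.

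Named RNAs were the 5 highest in each UF-dFBS sample, the 5 least and 5 most reduced per table, and the 2 leading members of each list. Leading loci of families, loci that differed between the sera and miRNAs not called lower were added after their values were seen. Members and lists were chosen with earlier results of these data known, and the vesicle annotations and the list of vesicle miRNAs came from the study's supplement.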

Additional observations from a re-analysis of the deposited data

Results flagged for a closer look

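The change with ultrafiltration differed between the sera for 16 RNAs in the edgeR interaction test, whose fit sets UF-dFBS against FBS and UC-dFBS together. The fitted difference is therefore not that of the paired ratios. It is given here as the log2 change of the Gibco minus that of the Sigma serum. For miRNAs it was 2.48 for hsa-let-7c-5p, 2.43 for hsa-let-7f-5p and -6.42 for hsa-miR-100-5p, the last with 0 counts in UF-dFBS-2, so that its fitted value depends on the prior count and is no bound. For tRNA-GlyGCC it was -4.73 at tRNA2-GlyGCC, -5.02 at tRNA35-GlyGCC, -5.01 at tRNA37-GlyGCC, -4.65 at tRNA39-GlyGCC, -5.51 at tRNA41-GlyGCC and -5.52 at tRNA68-GlyGCC. For tRNA-Pro it was -3.53 at tRNA12-ProTGG, -3.93 at tRNA22-ProAGG, -4.38 at tRNA30-ProCGG and -4.05 at tRNA4-ProAGG. It was -3.81 at tRNA13-ValCAC, -4.64 at tRNA54-LysTTT and -3.44 at tRNA9-ArgTCT. With TMM, 0 of these tests passed among miRNAs and 0 among other loci.

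At tRNA136-ValAAC and tRNA139-ValAAC, UF-dFBS of the Sigma serum was at 103% and 102% of FBS with intervals above the FBS level. The Gibco serum was below it, and this difference in direction was not tested. Since the intervals leave out the error of the spike-in scale, levels this close to FBS do not show a rise.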

How the results depend on the processing

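The counts of calls moved most with the scale. With TMM 10 miRNAs were lower and 12 higher, with DESeq2's own size factors 9 and 14, and with the serum as replicate block and TMM 15 and 19. Without a filter 277 miRNAs were lower, with at least 100 counts 67, and with the block and at least 100 counts 66. Leaving out 1 FBS or UF-dFBS sample gave 131 to 158. The pairing by serum changed other small ncRNAs most, from 0 lower to 213 with the block in 6 samples and 175 in 4, while leaving out 1 sample without the block gave 0 each time. Without the block, DESeq2 with spike-in factors gave 135, its own size factors 1, no filter 47 and at least 100 counts 10. With the block, TMM gave 19 lower and 21 higher, at least 100 counts 86 lower, and DESeq2 249. The combinations with the block were chosen after seeing the data. Differences between the sera numbered 0 miRNAs with TMM and 0 with at least 100 counts, and for other loci 0 with TMM, 36 with at least 100 counts and 52 with DESeq2.

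Median miRNA ratios were -7.97 and -6.69 (Sigma and Gibco) with at least 10 counts in FBS, -10.65 and -9.39 with at least 1000, and -6.94 and -3.96 as shares of all counts. For Y RNA they were -5.10 and -3.86 with at least 10 counts, -4.02 with at least 1000 in the Gibco serum, and -1.25 and 0.33 as shares. For snRNA they were -5.85 with at least 10 counts in the Sigma serum, and 2.56 and -1.63 as shares, and for tRNA -0.30 and -0.38 as shares. As shares of all counts, class totals in UF-dFBS were 1.20% and 5.51% of FBS for miRNA, 105% and 124.6% for tRNA, 324.9% and 99.2% for snRNA, 50.7% and 141.7% for Y RNA, and 46.8% and 61.1% for snoRNA. Shares rise where other classes fall, by their construction, and the cause of the other shifts was not tested. With 4204 and 937 miRNA counts in the UF-dFBS samples, ratios of single miRNAs rest on few counts.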
